A study of Gallus gallus with 13 samples.

Results

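The regions described here were bound, by the deposited peak calls, by wild-type HOXD13 and by its Q317R mutant, and by neither of the other factors tested. All peaks of the 4 deposited lists that overlapped by at least 1 bp were merged into 99237 regions. Of these, 5284 regions, or 5.32%, held a Q317R peak and a wild-type (wt) peak and no peak of the Q317K mutant or of PITX1. They took in 5308 of 21396 Q317R peaks, or 24.8% (24.2 to 25.4), and 5323 of 34267 wt peaks, or 15.5% (15.2 to 15.9). Brackets here and below are 95% exact binomial intervals, which cover counting over peaks or regions only. Regions crowd along the chromosomes and are not independent, so overlap or separation of such intervals tests no difference between classes. The regions were chosen by the peak calls themselves, so folds and shares are given as descriptions, and with 1 peak list per factor no difference between factors or classes was tested.

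The cells came from limb buds of chicken embryos at Hamburger-Hamilton stage 24, were infected with an avian retrovirus and were cultured for 9 days as micromass, small high-density spots of limb bud cells that go on to form cartilage. Each virus carried a FLAG-tagged factor: mouse Hoxd13 with the glutamine replaced by arginine (RCASBP(A)-3xFLAG-mHoxd13(Q317R)), wild-type mouse Hoxd13 (mHoxd13(wt)), mouse Hoxd13 with lysine at the same place (mHoxd13(Q317K)) or chicken PITX1 (cPITX1(wt)). Chromatin from all 4 cultures was precipitated with the same FLAG M2 antibody and read as 36 bp single reads from fragments of 300 to 450 bp. The virus drives the factor in all infected cells, and the antibody sees the tagged protein and not the chicken's own HOXD13.

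HOXD13 is a HOX factor of the distal limb, where it takes part in patterning the digits, and mutations in it cause limb malformations. Its homeodomain lays a recognition helix into the major groove of DNA, and residue Q317 lies in that helix at the place that reads the bases next to the TAAT core. Homeodomains of the bicoid type, PITX1 among them, carry lysine there, as Q317K does, whereas neither wild-type HOXD13 nor PITX1 has arginine at this place. The study asked how these substitutions move the factor across the genome, and the regions here are the sites called in common for glutamine and arginine but not for the lysine forms.

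The lists were not equally long or strict. Their smallest −log10 p was 36.7 for Q317R, 52.1 for wt, 39.4 for Q317K and 42.2 for PITX1, so a region outside a list can hold a weaker signal of that factor. When every list was held to the strictest of these limits, 3219 regions of Q317R and wt only were left. Of these, 2872 had the same strongest pair of peaks as in the full lists, and 347 had another pair or were new. In all 2412 regions whose pair was not kept, the Q317R peak lay below the limit. No wt peak was lost, since the limit is that of the wt list.

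Few regions owed their place to a marginal overlap. The Q317R and wt peaks overlapped by 527 bp at the median and by at least 50% of the shorter peak in 5228 regions, or 98.9%. Only 23 regions had an overlap below 100 bp. The smallest overlap was 10 bp, at chr5:4436524-4437841, where the summits lay 503 bp apart and the folds were 6.95 for Q317R and 6.57 for wt. The next smallest were 14 bp at chr2:51287712-51289851, with summits 622 bp apart, and 14 bp at chrZ:46965463-46966662, with summits 501 bp apart. Just outside the rule, a Q317R peak on chromosome 11 ended at 14515117 and a wt peak began at the following base, 14515118, with summits 468 bp apart and folds of 6.08 for Q317R and 11.5 for wt. A gap of 4 bp separated the next pair, on chromosome 2, where the Q317R peak ended at 120066630 and the wt peak began at 120066635. In all, 38 of 8855 regions of Q317R alone had a region of wt alone up to 100 bp away, with a median summit distance of 654.5 bp. The 23 regions that overlapped by up to 100 bp had a median of 628 bp.

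The regions were mostly simple in shape. In 5224 of them 1 Q317R peak met 1 wt peak, 57 held 3 peaks and 3 held 4. The median width was 805 bp (790 to 818), with 25% of regions up to 600 bp and 25% at least 1113 bp wide. Median peak widths within them were 657 bp for Q317R and 642.5 bp for wt, and the Q317R peak was the wider one in 52.2% of regions. These peaks were wider than those called for 1 form alone, with medians of 583 bp for Q317R alone and 557 bp for wt alone. In every other class called for more than 1 factor they were wider still. The medians there were 685 bp or more for Q317R and 692 bp or more for wt. A wider peak meets the overlap of 1 bp with another list more easily, and the part of this in the widths was not tested. In 26.5% of the 5224 simple regions the Q317R peak enclosed the wt peak, in 23.5% the Q317R peak lay inside the wt peak, and in 50.04% each peak overhung the other.

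Enclosure went with strength. Where the Q317R peak lay inside the wt peak, the median ratio of Q317R fold to wt fold was 0.738, and where it enclosed the wt peak the ratio was 0.975. A fold here is the enrichment at a peak as the authors' peak caller wrote it. Summits lay equally near in both arrangements, with 82.2% of regions within 100 bp in each.

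Q317R and wt summits, the points of highest signal, lay close together in these regions. The median distance was 35 bp (34 to 37), shorter than the 300 bp of the smallest selected fragments. In 4203 of 5284 regions, or 79.5% (78.4 to 80.6), the summits were within 100 bp, in 61.4% within 50 bp and in 19.1% within 10 bp. The Q317R summit stood at the higher coordinate in 2639 regions and at the lower in 2597, 48 had both summits on the same base, and the median signed distance, Q317R minus wt, was 0 bp. Neither direction along the chromosomes prevailed.

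Pairs of other factors with a class of their own were farther apart, with 1 exception. In the 3042 regions of Q317R and Q317K only, the median was 37 bp (34 to 39) and 78.3% (76.8 to 79.8) lay within 100 bp, close to the values for Q317R and wt. In the 1302 regions of wt and Q317K only, the summits were 203 bp apart at the median and 33.2% (30.6 to 35.8) were within 100 bp. Q317K and PITX1, which share the lysine, stood at 128 bp with 44.05% (42.1 to 46.0) within 100 bp. The remaining pairs with PITX1 had medians of 288 bp for Q317R and 381 bp for wt. At the median, Q317R summits were thus near those of wt and of Q317K in these classes, while wt and Q317K summits lay farther apart. The size of this contrast varied with region width.

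**Figure D1:**
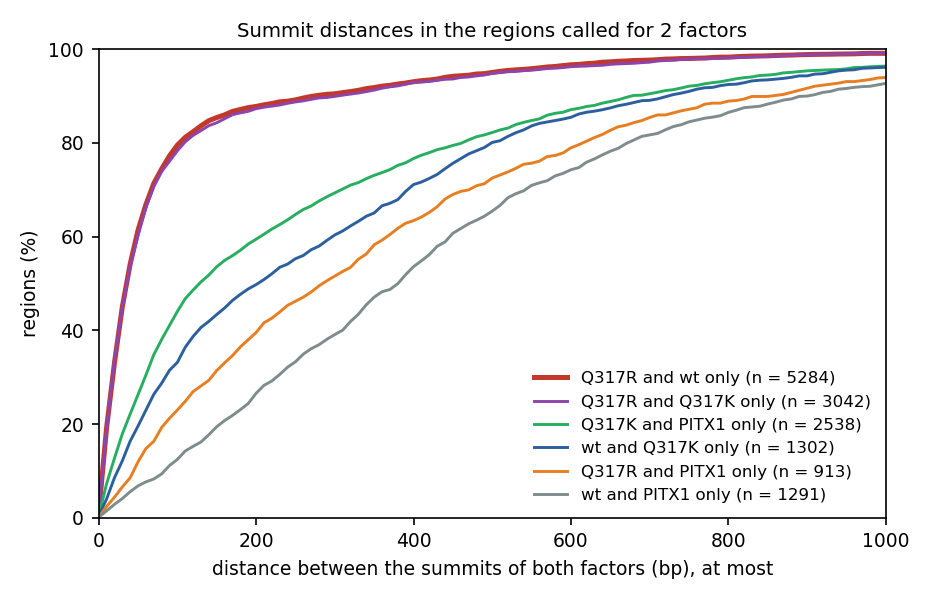
Share of regions (vertical axis, %) whose summits lie within a given distance in bp (horizontal axis), for the 6 classes of regions called for exactly 2 factors. The curve of Q317R and wt passes 79.5% at 100 bp and nearly covers that of Q317R and Q317K, at 78.3%, while wt and PITX1 reach 12.5% there.

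Width, which differed between these classes, moved with summit distance. Among regions of Q317R and wt only, 97.0% of the narrowest 1321 had summits within 100 bp, against 58.6% of the widest 1321. A region spans both of its peaks, so distant summits require a wide region and this contrast is partly fixed by the merging. Within a band of equal width, from 600 bp to below 800 bp, the share within 100 bp was 86.4% (84.4 to 88.2) for Q317R and wt, 87.02% for Q317R and Q317K, 65.8% for Q317K and PITX1, 46.03% for wt and Q317K and 25.6% for wt and PITX1. In the band from 1000 to below 1500 bp the shares were 65.01% for Q317R and wt, 66.5% for Q317R and Q317K, 36.6% for Q317K and PITX1, 20% for wt and Q317K and 7.49% for wt and PITX1. Regions of Q317R and PITX1 only had 42.7% (32.3 to 53.6) in the narrower band, with 89 regions, and 21.6% (17.5 to 26.3) in the wider one. These intervals overlapped those of wt and Q317K, which ran from 39.6 to 52.6 and from 16.3 to 24.1. In the band between, from 800 to below 1000 bp, Q317R and wt had 79.4% (76.6 to 81.9) and Q317R and Q317K 76.8% (73.01 to 80.3), with overlapping intervals. In the narrowest band, from 400 to below 600 bp, wt and Q317K summits were near each other too, 37 bp apart at the median in 139 regions. The share within 100 bp was 83.5% (76.2 to 89.2) for them, against 96.9% (95.8 to 97.8) for Q317R and wt.

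A similar picture held where all HOXD13 forms were called together. In the 1557 regions of Q317R, wt and Q317K without PITX1, the Q317R summit was 51 bp from the wt summit and 50 bp from the Q317K summit at the median, while wt and Q317K summits were 110 bp apart. The share of Q317R and wt summits within 100 bp was 66.7% there and 58.6% in the 449 regions of all 4 factors. Those regions were wider, with medians of 1124 bp and 1795 bp.

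In 262 of the regions of Q317R and wt only, or 4.96%, the summits were over 500 bp apart. As a region spans both of its peaks, summits this far apart require a wide one. The 262 regions were 1499 bp wide at the median, against 781 bp for the rest. Their median folds were 7.71 for Q317R and 8.58 for wt, against 7.79 and 9.22 for these forms in the rest. In 22 of them another pair of peaks in the same region had summits within 100 bp.

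By fold, the regions held stronger peaks than those called for a single form. The Q317R peak had a median fold of 7.79 in the regions of Q317R and wt only, against 7.21 in the 8855 regions of Q317R alone. Its median was close to 7.79 in regions of Q317R and Q317K only, at 7.75, and was 7.29 in those of Q317R and PITX1 only. The wt peak had a median fold of 9.18, against 7.87 in the 23489 regions of wt alone. Ranked within its own list, the median peak stood at percentile 55.7 for Q317R and at 65.2 for wt. The lists differ in length and limit, so these percentiles are not on a common scale. In regions that Q317K joined, the Q317R peak was stronger still, at 8.71, but the wt peak was not, at 8.90.

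**Figure D2:**
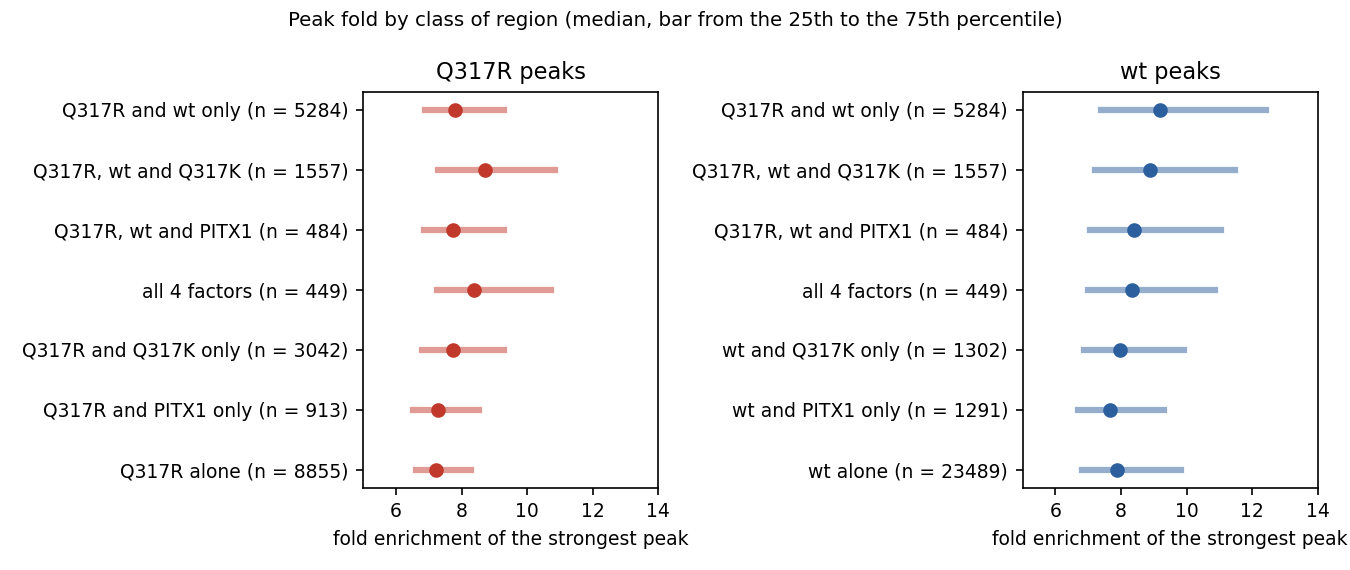
Fold enrichment of the strongest peak (horizontal axis) of Q317R on the left and of wt on the right, by class of region; points are medians and bars run from the 25th to the 75th percentile over regions. The wt median is 9.18 in regions of Q317R and wt only, above that of every other class shown, whereas the Q317R median of 7.79 lies below the 8.71 of regions that Q317K also holds.

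The wt list gave more of its strong peaks to these regions than of its weak ones. In the top decile of the wt list by fold, from 13.4 to 44.3, 30.2% of peaks (28.6 to 31.7) lay in regions of Q317R and wt only, against 10.04% (9.05 to 11.1) in the lowest decile. For Q317R the shares were 29.7% in the top decile and 16.6% in the lowest. The strongest Q317R peaks were more often in regions with still more factors: 26.1% of the top decile lay with wt and with Q317K, PITX1 or both, against 11.2% of the top decile of wt peaks. Peaks called for no other factor made up 20.06% of the top decile of Q317R and 52.9% of that of wt.

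**Figure D3:**
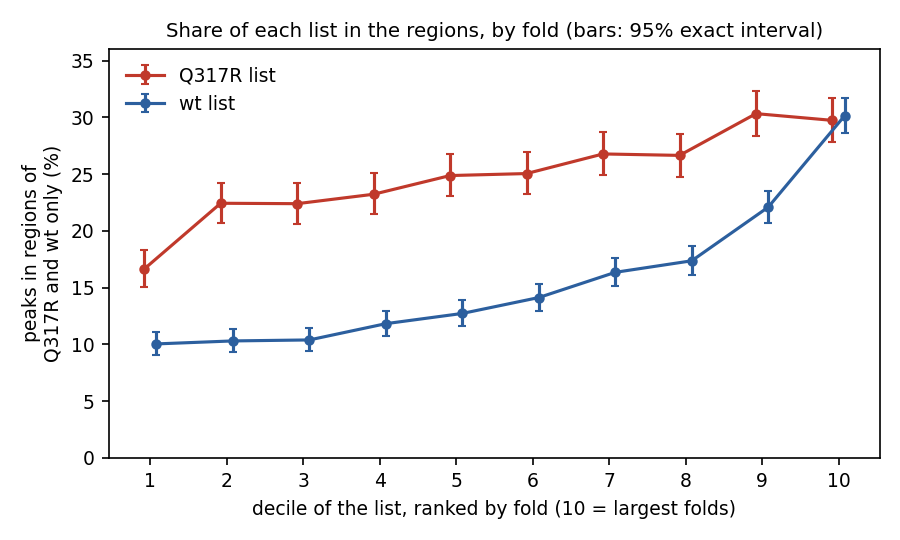
Share of the peaks of each list (vertical axis, %) that lie in regions of Q317R and wt only, by decile of the list ranked by fold (horizontal axis, 10 for the largest folds), with 95% exact binomial intervals. The Q317R curve runs from 16.6% to 29.7% and the wt curve from 10.04% to 30.2%.

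Within a region the strengths of the 2 forms were only loosely tied. The Q317R fold divided by the wt fold had a median of 0.864 (0.854 to 0.874), and 25% of regions lay below 0.654 and 25% above 1.08. The Q317R fold was the larger one in 1766 regions, or 33.4% (32.1 to 34.7). It was at least 2-fold larger in 38 regions, while the wt fold was at least 2-fold larger in 558. Fold scales depend on each library and its input, so the ratio orders regions and does not measure binding of one form against the other. By rank within its own list, Q317R stood higher in 43.4% of regions. Ranks depend on the length and limit of each list, with 21396 Q317R and 34267 wt peaks, so they do not measure relative binding either.

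Across the 5284 regions, Pearson's r between the folds was 0.19 and Spearman's rho 0.15. Regions are not independent replicates, and weak peaks are missing from both lists. The lists come from separate cultures that share the cell source, the antibody and the chromosomes. The rho was 0.17 in the regions with Q317K and 0.26 in those of all 4 factors. By fold, 779 regions, or 14.7%, lay in the top quartile of both lists, the fullest of the 16 combinations of quartiles. The emptiest, with 200 regions, combined the top quartile of Q317R with the lowest of wt. The regions leaned to the top of both lists, at median percentiles of 55.7 for Q317R and 65.2 for wt. A full top combination can follow from that alone, so these counts do not measure a tie between the folds.

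**Figure D4:**
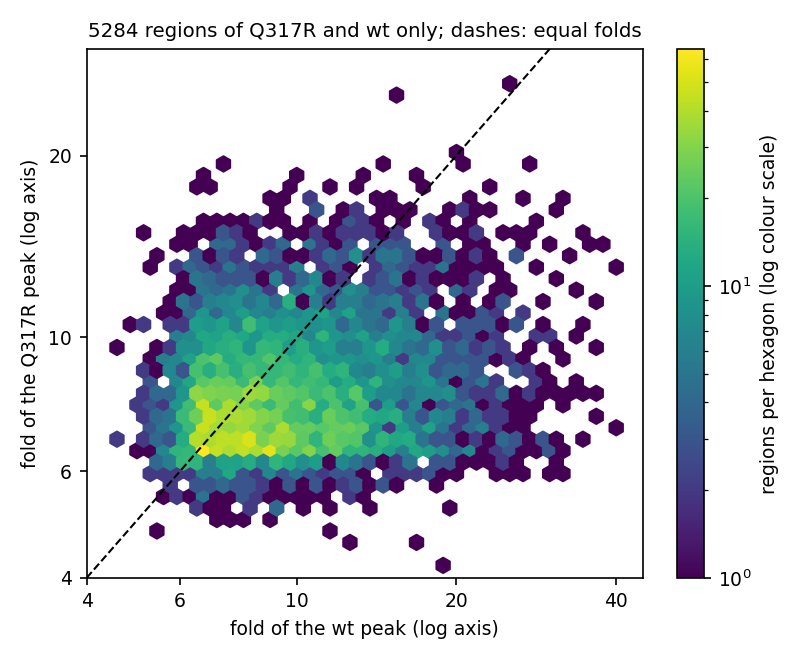
Fold of the Q317R peak (vertical log axis) against fold of the wt peak (horizontal log axis) in the 5284 regions of Q317R and wt only; colour gives the number of regions per hexagon and dashes mark equal folds. The cloud is wide, with r of 0.19, and reaches farther to the right, where wt folds exceed those of Q317R.

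Summits were nearer in the stronger regions. Ranked by the smaller of both folds, 85.3% (83.3 to 87.2) of the strongest 1321 regions had summits within 100 bp, with a median distance of 29 bp, against 76.99% (74.6 to 79.2) and 39 bp in the weakest 1321. The strongest group was not narrower, with a median width of 834 bp against 753 bp. Ranked by the wt fold alone, the shares were 86.5% and 73.96%. Ranked by the Q317R fold alone they were 83.2% and 78.3%, so the spread was larger along the wt fold.

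The region strongest in both forms lay at chr7:15134146-15135762. Its Q317R peak had a fold of 26.3, the largest in the Q317R list, and a −log10 p of 328, and its wt peak had a fold of 25.6 and a −log10 p of 462. The Q317R peak, 1513 bp wide, lay inside the wt peak of 1617 bp, and the summits, at 15134497 for Q317R and 15134505 for wt, were 8 bp apart. The nearest Q317K peak was 1085 bp away and the nearest PITX1 peak 4759 bp away.

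Summits were also near each other in the next strongest regions. At chr2:122563408-122564203 the folds were 19.8 for Q317R and 20.1 for wt and the summits were 2 bp apart, with no Q317K peak within 54982 bp. At chr4:42116855-42117371 the folds were 19.4 for Q317R and 21.1 for wt, the summits were 21 bp apart, and a Q317K peak lay 345 bp away. The Q317R and wt peaks of that region were nearly congruent, 509 bp and 517 bp wide.

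Both chromosome Z and chromosome 3 held several of the strongest regions. At chrZ:74027202-74027790 the folds were 19.1 for Q317R and 26.8 for wt, with summits 70 bp apart. At chrZ:62139591-62140864 they were 17.8 for Q317R and 17.3 for wt, with summits 10 bp apart. On chromosome 3, the region chr3:6402913-6403467 had folds of 17.5 for Q317R and 23.2 for wt. At chr3:80932887-80933644 the folds were 17.3 for Q317R and 31.9 for wt, and at chr3:24172295-24173093 they were 17.01 for Q317R and 26.1 for wt. Summits in these last regions were 24, 33 and 22 bp apart.

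The regions with the most unequal folds mostly had summits close together. The ratio of Q317R to wt fold was largest at chr7:1338910-1340183, where the folds were 14.8 for Q317R and 5.19 for wt, a ratio of 2.86, with summits 6 bp apart. Next were chr1:12281974-12282541, with folds of 18.3 for Q317R and 6.71 for wt, and chr7:16988197-16989600, with 17.6 for Q317R and 6.48 for wt. In all of them the wt peak was barely above its list's limit, with a −log10 p of 52.8, 56.04 and 58.4.

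The smallest ratio, 0.177, was at chr15:12001431-12001982, where the folds were 7.04 for Q317R and 39.8 for wt and the summits were 42 bp apart. At chr2:28630234-28630943 the folds were 6.07 for Q317R and 31.2 for wt, with summits 3 bp apart. At chr6:16362344-16363026 they were 7.30 for Q317R and 37.4 for wt, with summits 136 bp apart. In that order, the Q317R peaks stood at percentiles 35.8, 4.77 and 44.2 of their list by fold, and the wt peaks at 99.99, 99.86 and 99.97 of theirs.

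The widest region was chr9:19761092-19765227, of 4136 bp, all of it covered by a single Q317R peak, while its wt peak was 1096 bp wide and the summits were 5 bp apart. The region at chr3:25581942-25585869 was of the same kind, with a Q317R peak of 3928 bp around a wt peak of 853 bp. The region at chr6:3660222-3664229 instead joined 2 Q317R peaks through a wt peak of 3590 bp, and its strongest Q317R summit was 544 bp from the wt summit.

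The regions were spread over 27 chromosomes and were densest on large autosomes. Chromosome 4 had 6.84 regions per Mb, chromosome 3 had 6.26 and chromosome 1 had 6.15, counted up to the largest peak position on each. Density did not follow size throughout. Chromosome 8, of 30.6 Mb, had 6.07 per Mb, and chromosome Z, of 74.3 Mb, had 2.42. Chromosomes 23, 26, 27 and 28 had between 0.332 and 0.445 per Mb, with 2 regions each. Chromosome 25 and the short deposited parts of chromosomes 16 and W held none. Of all 5284 regions, 3846, or 72.8% (71.6 to 74.0), lay on chromosomes 1 to 5, which make up 60.7% of the summed length. Of the 99237 regions of every class, 65.1% lay there.

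Other HOXD13 classes leaned to the large chromosomes in the same way. The share on chromosomes 1 to 5 was 70.5% for Q317R alone, 71.3% for wt alone and 74.9% for all 3 HOXD13 forms. It was 61.9% for Q317K and PITX1 only and 55.6% for PITX1 alone. On chromosomes 11 to 28 the density was 2.83 per Mb, against 6.15 on chromosomes 1 to 5, while PITX1 alone stood at 41.99 per Mb on chromosomes 11 to 28 and at 30.3 on chromosomes 1 to 5. Differences in mappable length or chromatin between chromosomes were not measured here, and their part in these densities was not tested.

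**Figure D5:**
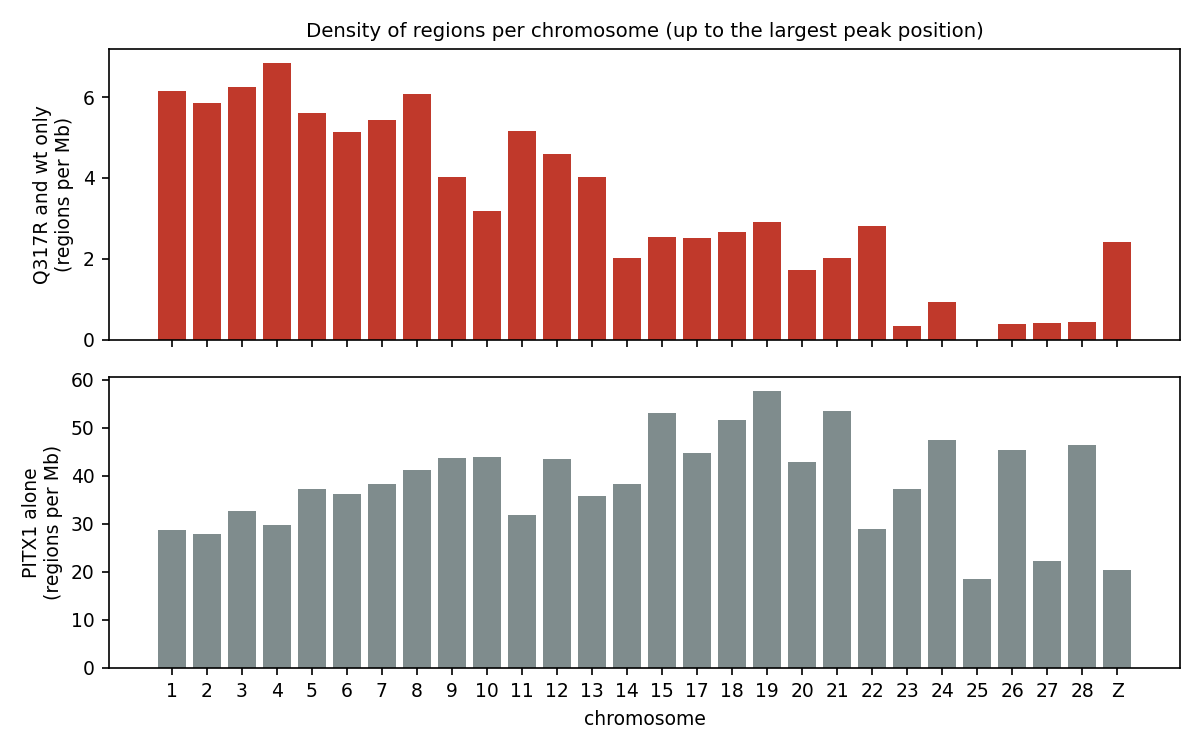
Regions per Mb on each chromosome over 1 Mb long (bars, each from 0), for regions of Q317R and wt only above and for regions of PITX1 alone below. Regions of Q317R and wt only are densest on chromosome 4, at 6.84 per Mb, and sparse on chromosomes 23 to 28, where several chromosomes have many PITX1 regions.

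Sharing between Q317R and wt was lower on chromosome Z than in the pooled groups of autosomes. Low sharing was not particular to Z. Chromosome 20, with 24 of the regions, had 1.72 per Mb beside 5.82 of Q317R alone, against 2.42 and 6.10 on Z. Among regions held by Q317R with or without wt and by no other factor, 28.4% (24.95 to 32.1) on Z were shared with wt, or 180 of 633, against 38.1% (37.2 to 39.1) on chromosomes 1 to 5 and 33.8% (31.4 to 36.3) on chromosomes 11 to 28. Counted over the regions held by wt with or without Q317R, the share was 13.8% (11.9 to 15.7) on Z. It was 18.7% (18.1 to 19.2) on chromosomes 1 to 5 and 16.9% (15.6 to 18.3) on chromosomes 11 to 28. In both counts the interval on Z overlapped that on chromosomes 11 to 28. The regions on Z were also narrower, with a median of 673 bp against 822 bp on chromosomes 1 to 5. Peaks of the whole lists were sparser on Z too, at 11.9 per Mb for Q317R and 19.5 for wt, against 24.3 for Q317R and 39.1 for wt on chromosomes 1 to 5. Median folds within the regions were 7.63 for Q317R and 9.06 for wt on Z, against 7.88 for Q317R and 9.21 for wt on chromosomes 1 to 5. The sex of the embryos is not stated in these sources, and the part of the copy number of Z was not tested.

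Neighbouring regions lay 96442 bp apart at the median (91579 to 100312), and 8.10% of the 5257 gaps were under 10 kb. The mean gap was 187115 bp, and the median was 0.515 of it. That ratio was 0.508 for wt alone, 0.557 for Q317R alone and 0.417 for PITX1 alone. It was 0.518 for all 3 HOXD13 forms without PITX1 and 0.519 for all 4 factors. Other shared classes differed more, at 0.571 for Q317R and Q317K only and 0.649 for Q317R, wt and PITX1. For Q317K and PITX1 only it was 0.470. Relative to their number the regions were thus spaced much like those of wt alone and of some shared classes, but not of all. The longest gap, of 3.88 Mb on chromosome 1 from 52244848 to 56127335, was no empty stretch. It held 263 regions of other classes, among them 32 of wt alone and 12 of Q317R alone. Both were sparser there than on chromosome 1 as a whole, with 27.1 per Mb for wt alone and 9.92 for Q317R alone. With all lists held to the strictest limit the median gap was 155334 bp, as fewer regions were left.

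A minority stood in tight groups. Of the 5284 regions, 804, or 15.2%, had another within 10 kb, in 339 pairs, 30 triplets and 9 groups of 4. The same share was 10.06% in the 3042 regions of Q317R and Q317K only. It was 21.8% in the 8855 of Q317R alone and 47.5% in the 23489 of wt alone, so it rose with the size of these classes. The shortest group of 4 spanned 9191 bp on chromosome 1, from 146262828 to 146272018. Of the 8 groups of 4 with the shortest spans, the 1 on chromosome 12 from 12888491 to 12904972 had the highest folds, up to 16.0 for Q317R and 31.2 for wt. These groups were picked after their values were seen.

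In windows of 1 Mb, 948 of 1043 windows, or 90.9%, held at least 1 region, with a median of 4. The fullest held 21 regions each, on chromosome 1 from 18000001 to 19000000 and on chromosome 5 from 44000001 to 45000000. The next held 19 each, on chromosome 4 from 42000001 to 43000000, which includes the strong site at 42116855, and on chromosome 5 from 33000001 to 34000000. The window on chromosome 1 held 103 regions in all, of which 36 were of wt alone, 11 of Q317R alone and 4 of PITX1 alone.

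Windows rich in these regions were also rich in regions of a single HOXD13 form. Over the 1043 windows, in which the classes share the same stretch of chromosome, Pearson's r with the count of wt alone was 0.77, with Q317R alone 0.63, with Q317K alone 0.60 and with PITX1 alone −0.30. The count of Q317K and PITX1 only had an r of −0.03. These values describe where the classes crowd and carry no test.

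The distance to the excluded factors was measured from each region. The nearest Q317K peak was 11174 bp away at the median and the nearest PITX1 peak 15699 bp away, against 11122 bp and 12977 bp for Q317R alone and 11716 bp and 16244 bp for wt alone. A Q317K peak stood within 1 kb of 366 regions, or 6.93% (6.26 to 7.64), and a PITX1 peak within 1 kb of 346, or 6.55% (5.90 to 7.25). For regions of Q317R alone the shares were 6.82% for Q317K and 7.14% for PITX1, and for wt alone 5.96% and 5.99%. Within 100 bp, just outside the rule, lay a Q317K peak in 31 regions and a PITX1 peak in 35. Overlap of intervals is given here as a description, since regions crowd together and are not independent. For the shares within 1 kb, the intervals of the regions of Q317R and wt only overlapped those of Q317R alone for both factors. Within 10 kb they overlapped for Q317K, at 46.4% (45.1 to 47.8) against 46.8% (45.8 to 47.9) for Q317R alone. For PITX1 they did not, at 39.8% (38.5 to 41.1) against 43.9% (42.8 to 44.9) for Q317R alone. For wt alone the shares within 10 kb were 45.03% (44.4 to 45.7) for Q317K and 38.3% (37.7 to 38.9) for PITX1. Both intervals overlapped those of the regions of Q317R and wt only. A lower share near PITX1 was thus not particular to the regions of Q317R and wt only.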

How the data were processed

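Of the 13 samples, the 4 FLAG chromatin immunoprecipitations were used; inputs and RNA libraries were not analysed here. The submitters' processing notes name MACS2 as the peak caller. For each peak the deposited lists hold a position, the authors' fold (a ratio), their −log10 of the p-value and the summit offset in bp; the deposited q-value column is −1 throughout. Not given in the sources used here are the aligner, genome build, input handling, thresholds, read depth and whether a list pools the 2 stated replicates. Positions are those of the lists, written from 1. On chromosome 1 they run to 200839888, past the GRCg7b genes, which end at 196443699, so no genes or sequences were assigned.

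Samples were grouped by title. Peaks were merged on an overlap of at least 1 bp, and where a region held several peaks of a factor the one of largest fold gave its fold and summit. Shares have exact Clopper-Pearson intervals and medians exact order-statistic intervals. Named regions were the 8 strongest by the smaller fold, the 3 largest and 3 smallest fold ratios, the 3 widest, the fullest windows and those at the edge of the rule. The classes, measures and regions were chosen with earlier results of these data known. Merging was checked against bedtools 2.31.1, which gave the same 99237 and 5284 regions, and on 6000 simulated regions, all of which were put in their class. Python 3.11.15, numpy 2.4.6, pandas 2.3.3, scipy 1.17.1 and matplotlib 3.10.9 were used.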

Additional observations from a re-analysis of the deposited data

How the results depend on the processing

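Depth is unknown, so weak sites cannot be told from absent ones, and list limits set the counts. Holding every list to the strictest −log10 p left 3219 regions, with a median width of 837 bp, a median fold ratio of 0.977 and a median spacing of 155334 bp. Taking the 20000 strongest peaks of each list left 3893 regions. Of the strongest pairs in the full lists 1700 were lost, and the wt peak was dropped in 1510 regions and the Q317R peak in 289. The width was then 824 bp, with 81.7% of summits within 100 bp, a ratio of 0.759 and a spacing of 130068 bp. Both settings remove weak peaks of 1 list more than of the other, which moves the ratio by construction. Merging across gaps of up to 500 bp gave a width of 855 bp and 73.5% of summits within 100 bp. Requiring an overlap of 50% of the shorter peak, or taking the pair of closest summits, moved no value beyond its interval and no count by over 1.5 times. Leaving out unplaced sequences changed nothing, as the lists hold none. No paired analysis was possible because each factor has 1 peak list.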
